A study of Mus musculus with 8 samples.

Results

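Acute phase proteins are plasma proteins whose synthesis in the liver changes during inflammation or injury. The 10 genes described here encode serum amyloid A proteins (Saa1, Saa2, Saa3, Saa4), orosomucoids (Orm1, Orm2), haptoglobin (Hp), hemopexin (Hpx), lipocalin 2 (Lcn2) and serum amyloid P component (Apcs). They were chosen by name, with earlier results of these data known, and found by their Ensembl identifiers among 49585 genes in a table of raw read counts. All 10 were present, and all 10 passed the filter on low counts together with the rest of the 16496 genes tested.

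In the acute phase response, interleukin-6 and related cytokines act through the shared receptor subunit gp130, Janus kinases and STAT3, while interleukin-1 and tumor necrosis factor act through NF-kB. Both routes meet in the hepatocyte on genes that also bind C/EBP factors, and glucocorticoids strengthen the response. Serum amyloid A1 and A2 are the classical inducible apolipoproteins of high-density lipoprotein, whereas Saa4 is expressed constitutively. The pathway is known in fatty liver disease as a sign of hepatic inflammation.

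RNA-seq was performed on livers of male mice of 3 genotypes, all fed a high-fat, choline-deficient (HFCD) diet for 3 months from 21 days of age. LP+/+ livers (n = 3) carried no Alb-Cre transgene, per the labels, and kept an unrecombined allele, Trp53fl/+ in replicates 1 and 2 and Trp53wm-R245W/+ in replicate 3. LPfl/+ livers (n = 2) were Alb-CreTG, Trp53fl/+, so that 1 Trp53 allele was deleted, and LP245/+ livers (n = 3) were Alb-CreTG, Trp53wm-R245W/+. The Trp53wm-R245W allele expresses wild-type p53 until Cre converts it into one that encodes the R-to-W missense protein, and the other allele stays wild type. Alb-Cre recombines in hepatocytes and cholangiocytes, so immune and other cells of these livers were wild type for p53. The study's text describes LP+/+ in one place as Cre-positive, which differs from the labels followed here. By the labels, the Cre transgene and the Trp53 alteration differ together between LP+/+ and the other groups and cannot be told apart, while LPfl/+ and LP245/+ both carry Cre. LPfl/+ and LP245/+ carry different engineered alleles, Trp53fl and Trp53wm-R245W, and the allele cannot be told apart from genotype between them. The library numbers in the labels fall into a first series (LP245/+ replicates 1 to 3, LP+/+ replicates 2 and 3) and a second series (LPfl/+ replicates 1 and 2, LP+/+ replicate 1), so that LP245/+ and LPfl/+ never share a series and genotype and series cannot be told apart between them.

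Libraries held 26304526 to 31370714 counts, of which albumin took 7.81 to 11.2%. Levels are given as CPM, the read count scaled to library size with TMM factors. Genotype was checked on Cdkn1a, a direct target gene of p53, which was at 4.85 to 6.62 CPM in LP+/+, 2.65 and 3.53 CPM in LPfl/+ and 0.514 to 0.966 CPM in LP245/+ livers. In the edgeR fit, Cdkn1a was the single gene past the cutoff of the study (a log2 change of 1 or more in either direction with an adjusted p up to 0.05) in LP245/+ against LP+/+. Its log2 fold change was -2.91 (edgeR quasi-likelihood test, Benjamini-Hochberg adjusted p = 0.0155). The study used DESeq2, with which more genes passed, as given in the closing section. Trp53 itself was at 7.11 to 9.06 CPM in LP+/+, 4.48 and 6.28 CPM in LPfl/+ and 6.80 to 11.2 CPM in LP245/+.

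All 10 acute phase genes had a lower estimate in LP245/+ than in LP+/+ and than in LPfl/+, where 49.4% and 49.2% of all genes tested were lower. Both comparisons use the same LP245/+ livers, so the counts are not independent. The largest differences were in Saa3, Orm2, Lcn2 and Saa1 against LP+/+ and in Saa3, Saa1, Lcn2 and Saa2 against LPfl/+. Saa3 was at 1.53 ± 0.183 CPM (SD, n = 3) in LP245/+ when compared with 3.60 ± 1.35 CPM (n = 3) in LP+/+ and 4.92 ± 1.5 CPM (n = 2) in LPfl/+. None of the 10 passed the study's cutoff in the edgeR fit of 8 livers in any of the 3 comparisons, so the differences below are given with an unadjusted p from that fit, read against the share of all genes that reached it. The study applied this cutoff to DESeq2 results, and with DESeq2 Saa1 and Saa3 passed it in LP245/+ against LPfl/+. They also passed it in an edgeR fit of those groups alone. Orm2 passed it in LP245/+ against LP+/+ without a filter on low counts. These settings are named with those comparisons.

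**Figure D1:**
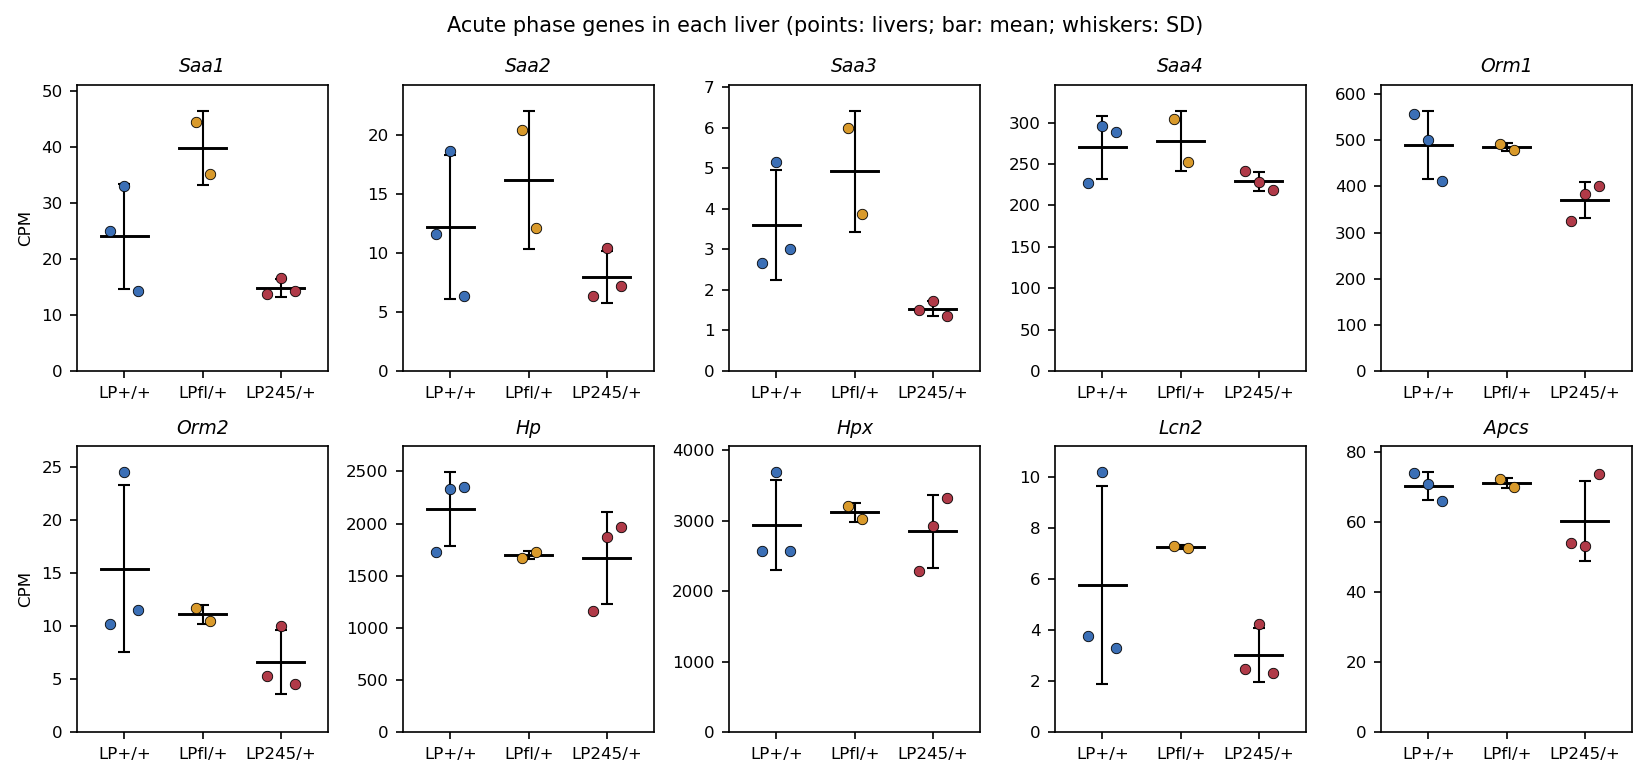
Level of each of the 10 acute phase genes in CPM (vertical axis, starting at 0) in each liver, by genotype; points are livers in order of replicate number, horizontal bars are group means and whiskers are SD. The Saa3 points of LP245/+ lie between 1.36 and 1.72 CPM, under every point of the other groups, while the Hpx points of the 3 groups overlap.

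The 10 genes spanned a wide range of abundance. Per kilobase of the principal transcript, the mean over 8 livers was 1970 CPM per kb for Hpx, 1380 for Hp, 573 for Orm1, 123 for Saa4, 68.8 for Apcs, 40.2 for Saa1, 17.8 for Saa2, 14.2 for Orm2, 5.68 for Saa3 and 5.59 CPM per kb for Lcn2. Hp and Hpx overlapped over the 8 livers, from 860 to 1750 CPM per kb for Hp and from 1530 to 2460 CPM per kb for Hpx. Orm1 (420 to 721 CPM per kb) and Saa4 (104 to 145 CPM per kb) overlapped with no neighbour in this order. Apcs (54.9 to 76.3 CPM per kb) overlapped with Saa1 (22.5 to 73.0 CPM per kb), and from Saa1 down each gene overlapped with the next. Over the union of all annotated exons instead, an alternative chosen after seeing the data, the mean level was 9.89 for Saa1, 4.61 for Saa2, 1.21 for Saa3 and 1.95 CPM per kb for Lcn2, which places Orm2 above Saa1 and Saa2, and Lcn2 above Saa3. Among the SAA genes the constitutive Saa4 was the most abundant on both scales, and Orm1 stood above Orm2 although their transcripts are of the same length, 775 bases.

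The spread between livers divided the genes into a variable and a steady set. The SD of log2 CPM over 8 livers was 0.684 for Saa1, 0.652 for Saa2, 0.788 for Saa3, 0.74 for Orm2 and 0.768 for Lcn2, which lay between the 92.3rd and the 96th percentile of all genes tested. The highest liver was above the lowest by 5.38-fold for Orm2, 4.4-fold for Saa3, 4.4-fold for Lcn2, 3.25-fold for Saa1 and 3.23-fold for Saa2. The SD was 0.191 for Saa4, 0.194 for Apcs, 0.226 for Hpx, 0.254 for Orm1 and 0.323 for Hp, near the median of 0.232 over all genes tested, and the ratio of the highest to the lowest liver was between 1.39 for Saa4 and Apcs and 2.03 for Hp. The variable genes are the less abundant ones, and counting error contributes more to their spread: Saa3 had 38 to 167 counts per liver and Lcn2 65 to 304, when compared with 62445 to 109505 for Hpx.

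**Figure D2:**
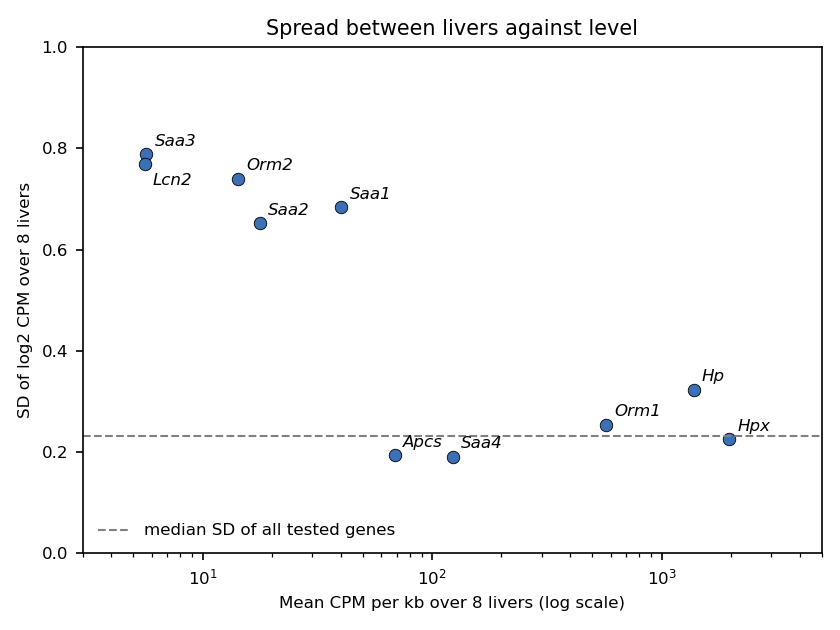
SD of log2 CPM over 8 livers (vertical axis) against the mean CPM per kb (horizontal axis, log scale) for the 10 genes, with the median SD of all tested genes, 0.232, as a dashed line. Saa1, Saa2, Saa3, Orm2 and Lcn2 lie between 0.652 and 0.788, and the other genes between 0.191 and 0.323.

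The promoters of these 5 variable genes are shown. Their spread was taken over all livers, so it includes the differences between genotypes and is not independent of them. The split was also not exact. In the edgeR fit the steady gene Orm1 was lower in LP245/+ against LP+/+ (unadjusted p = 0.0156) and against LPfl/+ (unadjusted p = 0.0290). The variable gene Saa2 was at an unadjusted p of 0.123 in LP245/+ against LP+/+. Each line holds the 250 bases before the transcription start in RefSeq (GRCm38.p6), 5′ to 3′ on the strand of the gene, in lower case. Capitals mark matches to the core recognition motif of C/EBP factors, TTGCNNAA, searched on both strands. The windows are chr7:46742981-46743230 for Saa1 (minus strand), chr7:46751583-46751832 for Saa2 (plus strand), chr7:46715677-46715926 for Saa3 (minus strand), chr4:63362199-63362448 for Orm2 (plus strand) and chr2:32387740-32387989 for Lcn2 (minus strand).
Saa1: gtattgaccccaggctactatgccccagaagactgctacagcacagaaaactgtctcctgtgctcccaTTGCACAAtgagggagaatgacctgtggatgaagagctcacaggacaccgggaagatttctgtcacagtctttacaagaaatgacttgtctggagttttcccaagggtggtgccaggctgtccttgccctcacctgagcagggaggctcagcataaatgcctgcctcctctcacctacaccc
Saa2: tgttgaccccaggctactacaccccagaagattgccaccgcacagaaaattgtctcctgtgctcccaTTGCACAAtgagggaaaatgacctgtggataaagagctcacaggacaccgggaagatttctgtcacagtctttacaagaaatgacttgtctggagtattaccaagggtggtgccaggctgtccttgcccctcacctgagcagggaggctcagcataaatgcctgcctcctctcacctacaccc
Saa3: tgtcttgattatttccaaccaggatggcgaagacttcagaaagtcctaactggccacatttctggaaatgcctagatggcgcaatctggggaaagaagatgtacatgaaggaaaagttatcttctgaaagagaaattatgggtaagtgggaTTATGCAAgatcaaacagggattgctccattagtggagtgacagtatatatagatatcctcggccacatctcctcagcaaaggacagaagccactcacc
Orm2: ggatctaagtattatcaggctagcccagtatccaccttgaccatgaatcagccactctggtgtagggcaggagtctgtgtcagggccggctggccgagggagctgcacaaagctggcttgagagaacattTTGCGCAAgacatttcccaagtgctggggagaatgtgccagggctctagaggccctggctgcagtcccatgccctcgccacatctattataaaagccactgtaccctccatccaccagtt
Lcn2: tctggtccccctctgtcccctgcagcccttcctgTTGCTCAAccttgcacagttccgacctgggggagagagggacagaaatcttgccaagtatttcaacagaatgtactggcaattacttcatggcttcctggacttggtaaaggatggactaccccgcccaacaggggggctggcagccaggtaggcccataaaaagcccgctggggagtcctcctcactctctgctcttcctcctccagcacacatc
Counted from the transcription start, the match begins at base -182 in Saa1, -183 in Saa2, -99 in Saa3, where it lies on the opposite strand, -120 in Orm2 and -216 in Lcn2. The Saa1 and Saa2 windows, with the 50 bases after the start, are 96% identical over 299 aligned bases, and the match is the same in both, TTGCACAA. The Lcn2 window lies inside the GENCODE span of the gene, which reaches a start farther upstream.

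Of the 10 genes, 8 had a RefSeq promoter window (250 bases before and 50 after the start), all but Orm1 and Hp. The C/EBP core was found in 7 of these 8, which include the steady genes Saa4 and Hpx, and not in Apcs. It was found in 10.8% of 32851 mouse promoters of that length. The STAT motif TTCNNNGAA was found in Apcs among the members and in 8.3% of all promoters. TATAAA was found in Orm2 among the members, at base -33, and in 13.6% of all promoters, and the NF-kB consensus was found in no member and in 8.46% of all promoters. No match overlapped a match to another motif. A match to these letters is a description of the sequence and not a measure of binding.

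Saa1 (ENSMUSG00000074115.5, GRCm38 chr7:46740497-46742980, minus strand) and Saa2 (ENSMUSG00000057465.5, chr7:46751790-46754313, plus strand) are neighbouring, divergently oriented genes for the inducible serum amyloid A proteins. Saa1 was at 24.9, 33.0 and 14.2 CPM in LP+/+ replicates 1, 2 and 3, at 44.5 and 35.1 CPM in LPfl/+ replicates 1 and 2, and at 13.7, 16.6 and 14.2 CPM in LP245/+ replicates 1, 2 and 3. Both LPfl/+ livers were above all others, and LP+/+ replicate 3 was at the level of the LP245/+ livers. Saa1 was 2.69-fold lower in LP245/+ than in LPfl/+ (log2 fold change -1.43, SE 0.28, edgeR unadjusted p = 0.000466, adjusted p = 0.362) and 1.62-fold lower than in LP+/+ (log2 fold change -0.70, SE 0.25, unadjusted p = 0.0209, adjusted p = 0.794). In LPfl/+ it was 1.66-fold higher than in LP+/+ (log2 fold change 0.73, SE 0.27, unadjusted p = 0.0247, adjusted p = 0.704).

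Saa2 was at 11.6, 18.6 and 6.35 CPM in LP+/+, 20.4 and 12.1 CPM in LPfl/+ and 6.32, 10.4 and 7.16 CPM in LP245/+. All LP245/+ livers were below both LPfl/+ livers, and they overlapped with LP+/+, where replicate 3 was again the lowest. The log2 fold change was -1.03 (SE 0.39, unadjusted p = 0.0269) against LPfl/+ and -0.61 (SE 0.36, unadjusted p = 0.123) against LP+/+. The ratio of Saa1 to Saa2 counts was between 1.58 and 2.9 over the livers. The transcripts are 94.4% identical, but 4.49% of the 76-base windows of the Saa1 transcript and 0.867% of those of Saa2 occur in the other gene, so most reads of the length used could be assigned to one of them.

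Saa3 (ENSMUSG00000040026.8, chr7:46711998-46715700, minus strand) encodes a serum amyloid A protein that is also made outside the hepatocyte, in macrophages and adipocytes. It was at 2.65, 5.15 and 3.01 CPM in LP+/+, 5.98 and 3.86 CPM in LPfl/+ and 1.51, 1.72 and 1.36 CPM in LP245/+. The LP245/+ livers did not overlap with either group and lay close together. Saa3 was 3.21-fold lower in LP245/+ than in LPfl/+ (log2 fold change -1.68, SE 0.32, unadjusted p = 0.000387, adjusted p = 0.362) and 2.35-fold lower than in LP+/+ (log2 fold change -1.23, SE 0.29, unadjusted p = 0.00199, adjusted p = 0.794). Its transcript shares no 76-base window with another gene.

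Saa4 (ENSMUSG00000040017.8, chr7:46727998-46732603, minus strand), the constitutive member of the cluster, was at 227, 296 and 288 CPM in LP+/+, 304 and 252 CPM in LPfl/+ and 241, 228 and 218 CPM in LP245/+. LP245/+ was below both LPfl/+ livers and overlapped with LP+/+ replicate 1. The log2 fold change was -0.28 (SE 0.15, unadjusted p = 0.0854) against LPfl/+ and -0.24 (SE 0.13, unadjusted p = 0.100) against LP+/+, with 95% intervals of -0.61 to 0.05 and -0.54 to 0.06.

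Orosomucoids, or alpha-1 acid glycoproteins, bind drugs and lipids in plasma. Orm1 (ENSMUSG00000039196.2, chr4:63344560-63348163, plus strand) was at 558, 501 and 411 CPM in LP+/+, 492 and 480 CPM in LPfl/+ and 325, 384 and 400 CPM in LP245/+. The LP245/+ livers lay below all others, with a narrow gap to LP+/+ replicate 3. Orm1 was 1.33-fold lower in LP245/+ than in LP+/+ (log2 fold change -0.41, SE 0.14, unadjusted p = 0.0156, adjusted p = 0.794) and 1.31-fold lower than in LPfl/+ (log2 fold change -0.39, SE 0.15, unadjusted p = 0.0290, adjusted p = 0.533).

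Orm2 (ENSMUSG00000061540.3, chr4:63362449-63365878, plus strand) was at 10.2, 24.5 and 11.5 CPM in LP+/+, 11.7 and 10.5 CPM in LPfl/+ and 5.29, 10 and 4.54 CPM in LP245/+. LP+/+ replicate 2 stood above all other livers, and LP245/+ replicate 2 lay just under the lowest LP+/+ and LPfl/+ livers. Orm2 was 2.32-fold lower in LP245/+ than in LP+/+ (log2 fold change -1.22, SE 0.37, unadjusted p = 0.00816, adjusted p = 0.794), and the log2 fold change against LPfl/+ was -0.75 (SE 0.41, unadjusted p = 0.0953). The Orm1 and Orm2 transcripts are 91% identical and 13.6% of their 76-base windows occur in both. Reads from these windows could be lost from both genes or assigned to either. How reads that fit both were counted was not given in the sources used here. Orm1 had 8855 to 16443 counts and Orm2 127 to 726.

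Haptoglobin binds free hemoglobin and hemopexin binds free heme. Hp (ENSMUSG00000031722.10, chr8:109575128-109579172, minus strand) was at 1730, 2330 and 2350 CPM in LP+/+, 1670 and 1730 CPM in LPfl/+ and 1160, 1870 and 1970 CPM in LP245/+. LP245/+ replicate 1 was the lowest liver, and the other LP245/+ livers were above both LPfl/+ livers. The log2 fold change was -0.36 (SE 0.20, unadjusted p = 0.111) in LP245/+ against LP+/+, -0.33 (SE 0.23, unadjusted p = 0.182) in LPfl/+ against LP+/+ and -0.03 (SE 0.23, unadjusted p = 0.904) in LP245/+ against LPfl/+. LPfl/+ did not overlap with LP+/+ for Hp, by a small margin, since 1 liver of each was at 1730 CPM after rounding.

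Hpx (ENSMUSG00000030895.9, chr7:105591613-105600137, minus strand) was at 2570, 3690 and 2570 CPM in LP+/+, 3210 and 3020 CPM in LPfl/+ and 2290, 2920 and 3320 CPM in LP245/+. The 3 groups overlapped. The log2 fold change was -0.05 in LP245/+ against LP+/+ with a 95% interval of -0.46 to 0.36, and -0.13 against LPfl/+ with an interval of -0.59 to 0.33.

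Lipocalin 2 binds bacterial siderophores and is made by stressed hepatocytes and stored in neutrophil granules. Lcn2 (ENSMUSG00000026822.14, chr2:32384633-32388252, minus strand) was at 3.77, 10.2 and 3.31 CPM in LP+/+, 7.30 and 7.21 CPM in LPfl/+ and 2.50, 4.24 and 2.33 CPM in LP245/+. The LP245/+ livers were below both LPfl/+ livers but overlapped with LP+/+, where replicate 2 was far above the others. Lcn2 was 2.40-fold lower in LP245/+ than in LPfl/+ (log2 fold change -1.26, SE 0.45, unadjusted p = 0.0198, adjusted p = 0.500) and 1.91-fold lower than in LP+/+ (log2 fold change -0.93, SE 0.42, unadjusted p = 0.0498, adjusted p = 0.831). The sum over 10 neutrophil markers was 1.85 to 2.75 CPM in LP+/+, 3.12 to 3.71 CPM in LPfl/+ and 2.12 to 3.04 CPM in LP245/+. For this sum LPfl/+ lay above both other groups, and LP245/+ overlapped with LP+/+. For Lcn2, LPfl/+ lay above LP245/+ but not above LP+/+ replicate 2, at 10.2 CPM. S100a8 and S100a9 made up most of the sum. Both lay higher in LPfl/+ than in LP+/+ without overlap, as did 12.6% of all genes. Cxcr2 had a lower estimate in LPfl/+ than in LP+/+ (log2 fold change -0.11). Ly6g had no count in any liver, and the granule genes Ltf and Camp had at most 4 and 7 counts. The part of neutrophils in the Lcn2 level was not tested.

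Serum amyloid P component, a pentraxin, is the product of Apcs (ENSMUSG00000026542.6, chr1:172893961-172895041, minus strand). Apcs was at 74.0, 70.9 and 66.0 CPM in LP+/+, 72.3 and 70.1 CPM in LPfl/+ and 54.2, 53.3 and 73.7 CPM in LP245/+. LP245/+ replicates 1 and 2 were the lowest livers, and replicate 3 lay among the other genotypes. The log2 fold change was -0.22 (SE 0.13, unadjusted p = 0.124) against LP+/+ and -0.24 (SE 0.14, unadjusted p = 0.133) against LPfl/+.

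The first comparison, LP245/+ against LP+/+, asks what expression of the missense allele in hepatocytes did to the liver on this diet. All 10 members had a lower estimate, with a median log2 fold change of -0.51, when compared with a median of 0.00 and 49.4% lower over all genes tested. Saa1, Saa3, Orm1, Orm2 and Lcn2, 5 of 10, were lower at an unadjusted p below 0.05, against 2.38% of all genes, and Saa3, Orm1 and Orm2, 3 of 10, did not overlap with LP+/+, against 5.08% of all genes. None of the members was past the cutoff, which 0.00606% of all genes passed. Saa3 and Orm2 kept an unadjusted p below 0.05 whichever of the 6 livers was left out, with log2 fold changes of -1.41 to -0.90 for Saa3 and -1.64 to -0.72 for Orm2. LP+/+ replicate 2, high for most members, and LP245/+ replicate 1, low for most, weighed on the count: it was 3 without the former, when Lcn2 was at a log2 fold change of -0.24 and Saa1 at -0.41, and 2, Saa3 and Orm2, without the latter. Saa1 and Lcn2 missed the threshold without LP245/+ replicate 3 as well (unadjusted p = 0.0578 and 0.146), and Orm2 was past the cutoff when no filter on low counts was used (adjusted p = 0.0445). Within the first library series alone, LP245/+ was lower than LP+/+ for all 10, by log2 ratios of -1.44 for Orm2, -1.42 for Saa3, -1.17 for Lcn2, -0.67 for Saa1, -0.64 for Saa2, -0.49 for Hp, -0.35 for Saa4, -0.30 for Orm1, -0.18 for Apcs and -0.14 for Hpx. LP+/+ replicate 3, which carried the unrecombined Trp53wm-R245W allele, lay within the LP245/+ range for Saa1, Saa2, Lcn2, Hpx and Apcs. It lay above every LP245/+ liver for Saa3, Saa4, Orm1, Orm2 and Hp. Livers with the unrecombined Trp53fl allele lay within the LP245/+ range as well, LP+/+ replicate 1 for Saa4, Hp, Hpx and Lcn2 and replicate 2 for Apcs. The part of the engineered allele was not tested.

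The second comparison, LPfl/+ against LP+/+, asks what loss of 1 Trp53 allele did. The members did not move to one side: 7 had a higher and 3 a lower estimate, and the median log2 fold change was 0.06. Saa1, 1 of 10, was higher at an unadjusted p below 0.05, against 4.22% of all genes, and it was the 1 member whose LPfl/+ livers lay above all LP+/+ livers, against 12.6% of all genes. Hp was the 1 member whose LPfl/+ livers lay below, against 12.4% of all genes. No gene was past the cutoff (0%), with 1137 genes at an unadjusted p below 0.05 and 9 past the cutoff with DESeq2. Saa1 was at an unadjusted p of 0.155 without LPfl/+ replicate 1 and of 0.0583 when only these 2 groups were fitted, whereas without LP+/+ replicate 2 the count was 4, with Saa2, Saa3 and Lcn2 at log2 fold changes of 0.85, 0.78 and 1.02. Within the second series, where LP+/+ has 1 liver, LPfl/+ was above it by a log2 ratio of 0.95 for Lcn2, 0.89 for Saa3, 0.68 for Saa1, 0.49 for Saa2, 0.29 for Saa4, 0.28 for Hpx and 0.12 for Orm2, and the ratio was -0.20 for Orm1, -0.056 for Apcs and -0.026 for Hp.

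The third comparison, LP245/+ against LPfl/+, sets the missense allele against deletion of 1 Trp53 allele, with Cre in both. The engineered alleles differ as well, Trp53wm-R245W in LP245/+ and Trp53fl in LPfl/+. It shares its LP245/+ livers with the first comparison and its LPfl/+ livers with the second. All 10 members had a lower estimate in LP245/+, with a median log2 fold change of -0.57, when compared with 0.00 and 49.2% lower over all genes. Saa1, Saa2, Saa3, Orm1 and Lcn2, 5 of 10, were lower at an unadjusted p below 0.05, against 4.44% of all genes, and these together with Saa4 and Orm2, 7 of 10, did not overlap, against 13.3% of all genes. No gene was past the cutoff (0%) in the edgeR fit of all 8 livers, with 1404 genes at an unadjusted p below 0.05. DESeq2 put 56 genes past it, among them Saa1 (adjusted p = 0.000243) and Saa3 (adjusted p = 0.00159), and so did edgeR on the 5 livers of these groups, with 51 genes, Saa1 at an adjusted p of 0.00375 and Saa3 at 0.0351. Saa1 and Saa3 kept an unadjusted p below 0.05 whichever of the 5 livers was left out, with log2 fold changes of -1.58 to -1.24 and -1.96 to -1.33, while the count of members was 2 without LP245/+ replicate 1 or without LPfl/+ replicate 1 and 3 without LPfl/+ replicate 2. Genotype and library series cannot be told apart between these groups directly. A fit with series as a covariate relies on LP+/+, which has 1 liver in the second series.

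**Figure D3:**
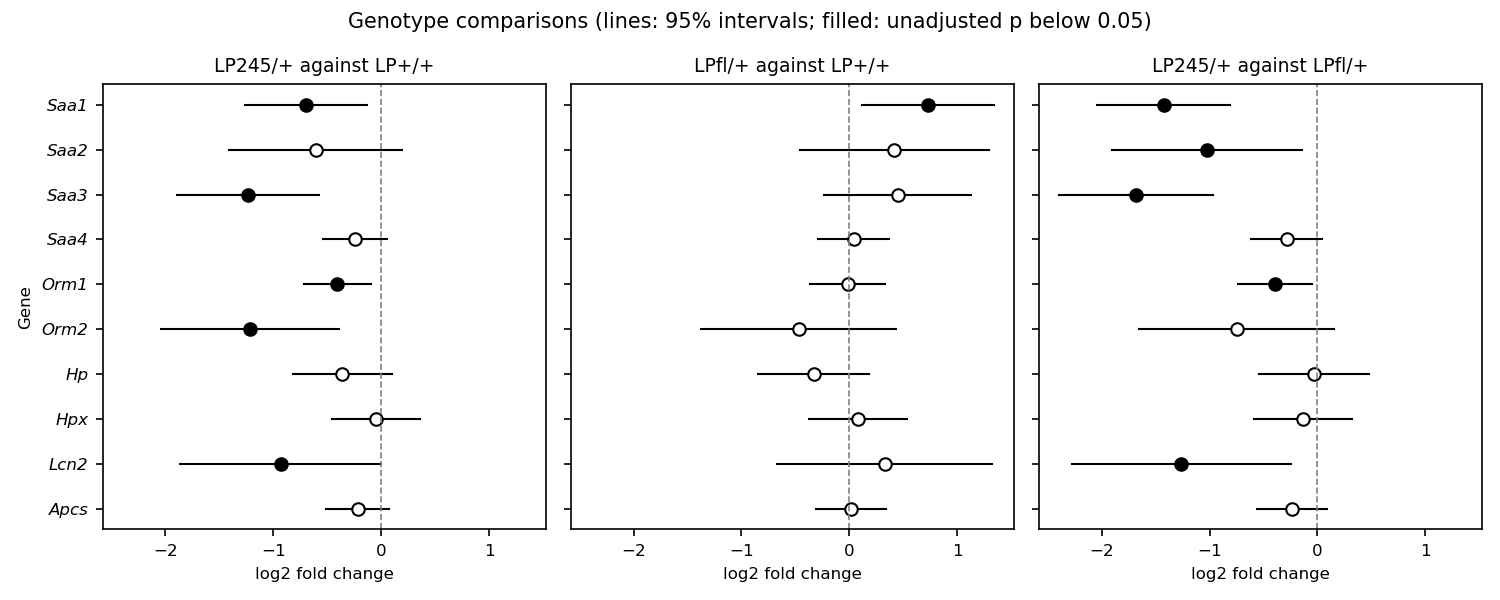
log2 fold change (horizontal axis) of the 10 genes in the 3 genotype comparisons, with 95% intervals as lines; filled points have an unadjusted p below 0.05 in the edgeR fit of 8 livers. Saa3 lies at -1.23 in LP245/+ against LP+/+ and at -1.68 against LPfl/+, and the intervals of Hpx span 0 in each comparison.

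The livers of 1 genotype did not stand equally high or low. Ranked from 1 for the lowest to 8 for the highest liver, the mean rank over the 10 members was 4.6, 7 and 4.3 in LP+/+ replicates 1, 2 and 3, 6.6 and 5.2 in LPfl/+ replicates 1 and 2, and 1.7, 3.4 and 3.2 in LP245/+ replicates 1, 2 and 3. LP+/+ replicate 2 and LPfl/+ replicate 1 were each among the 3 highest livers for 9 of 10 members. LP245/+ replicate 1 was the lowest liver for 5 members, replicate 3 for 4 and replicate 2 for 1. The share of all genes that were lowest in these livers is not given here. LP245/+ replicate 3 was among the 3 highest for 3 members, Hp, Hpx and Apcs, so that the low level in this liver was in the SAA genes, Orm1, Orm2 and Lcn2.

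**Figure D4:**
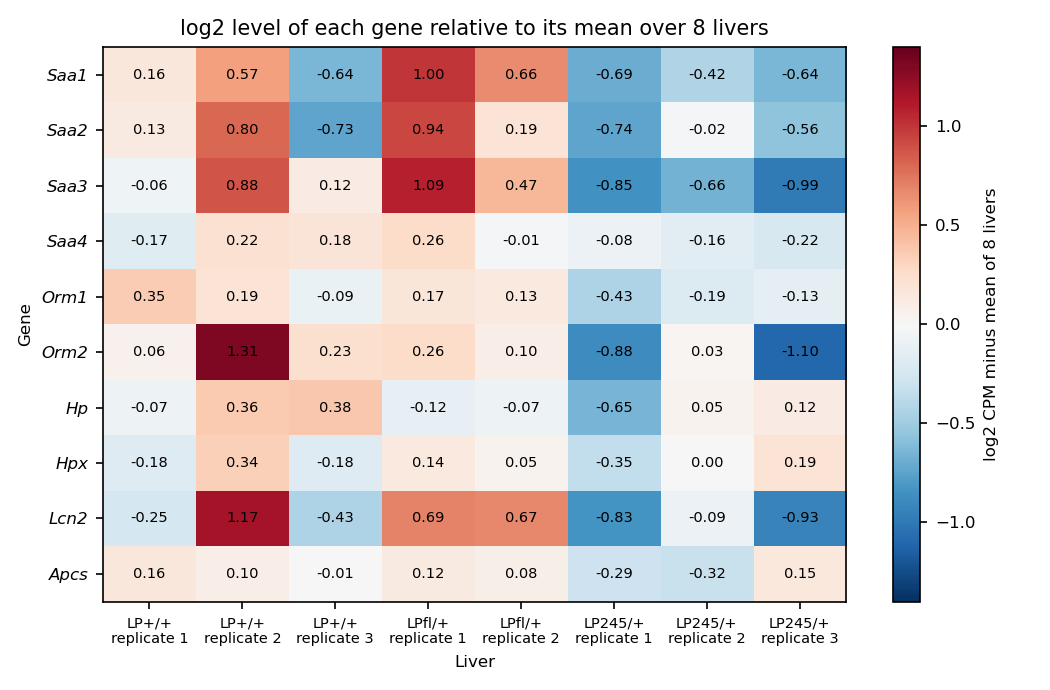
log2 CPM of each gene (rows) in each liver (columns) minus the mean of that gene over 8 livers; red is above and blue below the mean. LP+/+ replicate 2 is above the mean for all 10 genes, from 0.10 for Apcs to 1.31 for Orm2, and LP245/+ replicate 1 is below it for all 10.

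Other positive acute phase proteins were measured with a list of 25 further genes, 22 of which passed the filter. In LP245/+ against LP+/+, 20 of 22 had a lower estimate, with a median log2 fold change of -0.23 (49.4% of all genes were lower), and 2 were lower at an unadjusted p below 0.05, against 2.38% of all genes. These were Fgl1, a fibrinogen-like protein secreted by hepatocytes (log2 fold change -0.73, unadjusted p = 0.0287), and Serpina3n, a serine protease inhibitor (log2 fold change -0.37, unadjusted p = 0.0212). Fgl1 was at 193, 266 and 126 CPM in LP+/+, 197 and 218 CPM in LPfl/+ and 77.7, 118 and 155 CPM in LP245/+, where the LP245/+ livers lay below both LPfl/+ livers and overlapped with LP+/+. Against LPfl/+, 16 of 22 had a lower estimate, and 2 were lower at an unadjusted p below 0.05, against 4.44% of all genes, namely Fgl1 (log2 fold change -0.82) and Mt1, a metallothionein (log2 fold change -0.92, unadjusted p = 0.00353). C3, complement component 3 and the most abundant of the list, was at log2 fold changes of -0.01 and 0.17 in these comparisons. In LPfl/+ against LP+/+, 17 of 22 had a lower estimate and none had an unadjusted p below 0.05.

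Negative acute phase proteins, whose synthesis falls in inflammation, showed no member of the list of 8 at an unadjusted p below 0.05 in any comparison. Of the 8, 4 were lower and 4 higher in LP245/+ against LP+/+, with a median log2 fold change of -0.06, and all 8 were higher in LP245/+ against LPfl/+, with a median of 0.14. Albumin, the most abundant, was at log2 fold changes of -0.18 and 0.12. In LPfl/+ against LP+/+, 7 of 8 had a lower estimate, with a median of -0.19.

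The cytokines that drive the response were scarce in whole liver. Of 8 ligands, 2 passed the filter, Il1a and Il1b, which encode the interleukin-1 proteins made mainly by macrophages. Il1b was at 4.86, 2.09 and 2.25 CPM in LP+/+, 4.48 and 3.07 CPM in LPfl/+ and 1.54, 2.12 and 1.68 CPM in LP245/+. It was lower in LP245/+ than in LPfl/+ (log2 fold change -1.08, SE 0.37, unadjusted p = 0.0161), without overlap, and than in LP+/+ (log2 fold change -0.78, SE 0.34, unadjusted p = 0.0457), with overlap. At an unadjusted p below 0.05, 4.44% of all genes were lower against LPfl/+ and 2.38% against LP+/+. Without overlap, 13.3% of all genes lay lower than in LPfl/+. Il1a was at 3.71 to 5.74 CPM in LP+/+, 4.91 and 6.46 CPM in LPfl/+ and 3.45 to 4.33 CPM in LP245/+, and its log2 fold change was -0.60 against LPfl/+ (unadjusted p = 0.0302). Il6 had 0 or 1 count in each liver, under the floor of 3 counts (0.0993 to 0.11 CPM), so no difference in it was detectable at this depth; it was singled out after its values were seen.

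Few receptors and intracellular steps of the pathway stood out in LP245/+ against LP+/+. Of 8 cytokine receptors, 1 was higher at an unadjusted p below 0.05, against 3.55% of all genes. This was Il1r1, the signaling receptor for interleukin-1 (log2 fold change 0.43, edgeR unadjusted p = 0.00694). It was at 61.5 to 74.2 CPM in LP245/+ and at 41.9 to 54.9 CPM in LP+/+. Of 11 kinases and transcription factors, 1 was lower, against 2.38% of all genes, the Janus kinase gene Tyk2 (log2 fold change -0.24, unadjusted p = 0.0384). None of the 7 tested feedback and early targets of STAT3 and NF-kB had an unadjusted p below 0.05, and the median over them was 0.09. Of 6 genes of the glucocorticoid receptor and its targets, 1 was higher, Zbtb16, a zinc finger repressor induced by glucocorticoids (log2 fold change 0.75, unadjusted p = 0.0185).

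Against LPfl/+, more genes of these lists had an unadjusted p below 0.05, and they went both ways, where 4.07% of all genes were higher and 4.44% lower. Higher in LP245/+ were Il1r1 (log2 fold change 0.56), Il6ra, the ligand-binding receptor for interleukin-6 (0.80), Hnf4a, a master regulator of hepatocyte genes (0.39), Nfkbiz, which encodes an atypical regulator of NF-kB (0.71), and the glucocorticoid-responsive genes Per1 (1.15) and Zbtb16 (1.57). Lower were Il22ra1, a receptor subunit for interleukin-22 (log2 fold change -0.88), and Sgk1, a glucocorticoid-responsive kinase (-0.97). Zbtb16 was at 21.8, 48.2 and 30.6 CPM in LP+/+, 21.3 and 16.8 CPM in LPfl/+ and 64.7, 41.8 and 63.2 CPM in LP245/+. Zbtb16 was higher in LP245/+ than in LPfl/+ at an edgeR unadjusted p of 0.000623 (adjusted p = 0.362). It was lower in LPfl/+ than in LP+/+ (log2 fold change -0.81, unadjusted p = 0.0255), where 2.67% of all genes were lower. The most abundant genes of these lists did not reach an unadjusted p of 0.05 in LP245/+ against LP+/+ and were at log2 fold changes of 0.07 for the receptor Lifr, 0.15 for the mRNA decay factor Zfp36 and -0.03 for the glucocorticoid target Tsc22d3.

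Of 8 receptors and enzymes that handle acute phase proteins, Cd163, the macrophage receptor that clears haptoglobin bound to hemoglobin, was lower in LP245/+ than in LP+/+ (log2 fold change -0.43, unadjusted p = 0.0114) and lower in LPfl/+ than in LP+/+ (log2 fold change -0.39, unadjusted p = 0.0308). At an unadjusted p below 0.05, 2.38% and 2.67% of all genes were lower in these comparisons. Both comparisons share the LP+/+ livers, in which Cd163 was at 21.0 to 27.7 CPM, when compared with 16.2 and 19.7 CPM in LPfl/+ and 16.1 to 19.6 CPM in LP245/+. Tlr4, a receptor that responds to endotoxin, was higher in LPfl/+ than in LP+/+ (log2 fold change 0.56, unadjusted p = 0.0395), against 4.22% of all genes. Lrp1, which clears hemopexin bound to heme and was the most abundant of the list, was at log2 fold changes of 0.17, -0.43 and 0.60 in the 3 comparisons, none at an unadjusted p below 0.05.

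**Figure D5:**
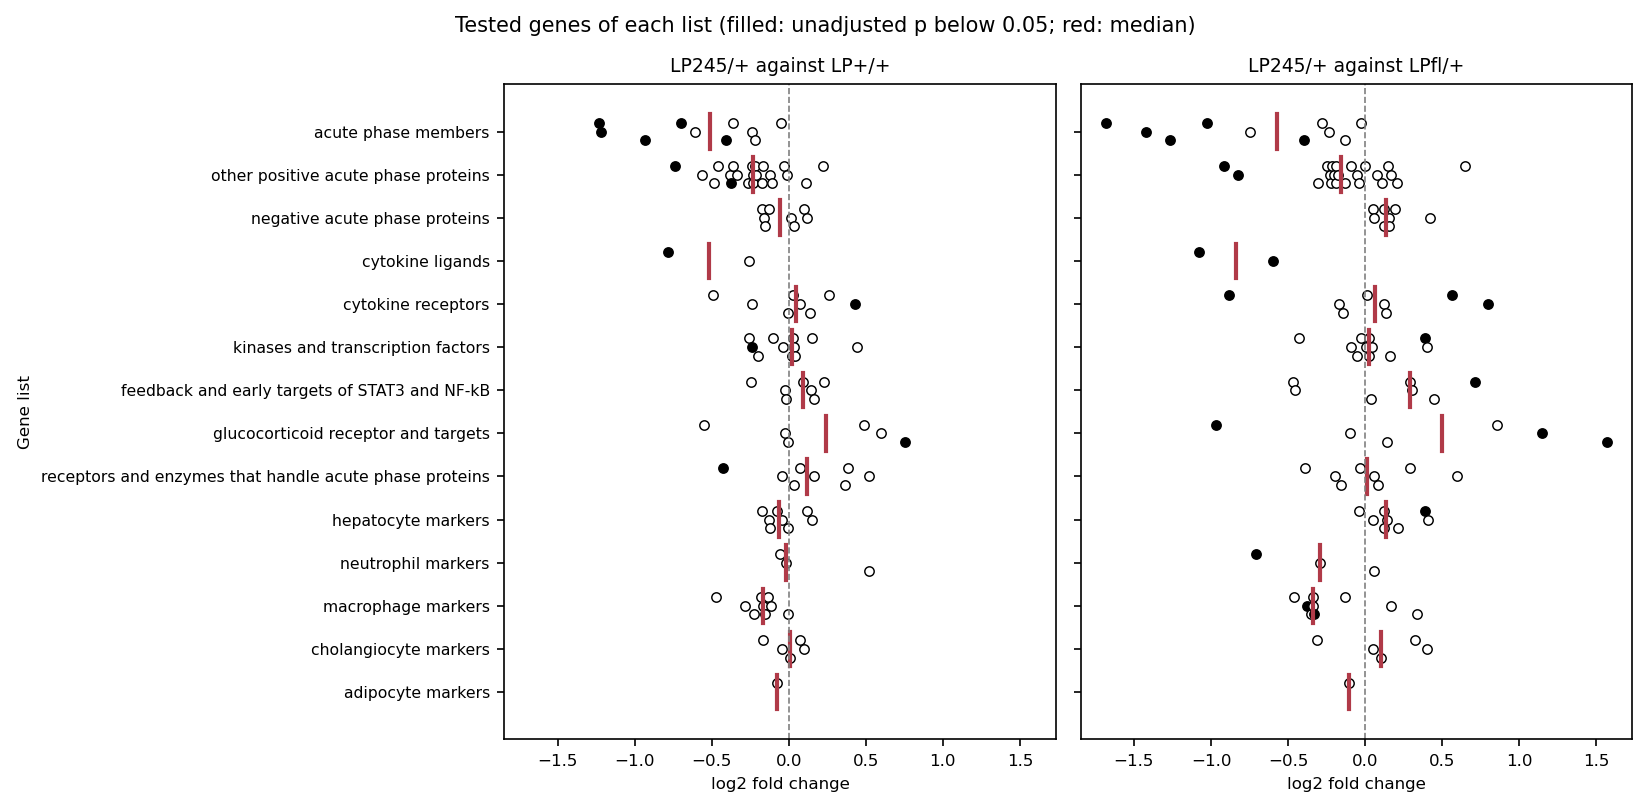
log2 fold change (horizontal axis) of each tested gene of the 10 members and of 13 further lists, in LP245/+ against LP+/+ (left) and against LPfl/+ (right); filled points have an unadjusted p below 0.05 and red bars are list medians. The median of the members is -0.51 on the left and -0.57 on the right, and that of the other positive acute phase proteins is -0.23 and -0.15.

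Markers of liver cell types were compared because bulk RNA cannot tell fewer cells of a type from less RNA per cell. The sum of 8 hepatocyte markers was 101000 to 144000 CPM in LP+/+, 98600 to 108000 CPM in LPfl/+ and 102000 to 119000 CPM in LP245/+, so the groups overlapped, and 6 of 8 had a lower estimate in LP245/+ against LP+/+ and 1 of 8 against LPfl/+. Alb made up most of this sum, at 75600 to 117000 CPM in LP+/+, 77600 and 83200 CPM in LPfl/+ and 77800 to 92600 CPM in LP245/+. Macrophage markers summed to 412 to 485 CPM in LP+/+, 407 to 533 CPM in LPfl/+ and 368 to 445 CPM in LP245/+. All 9 had a lower estimate in LP245/+ against LP+/+, with a median log2 fold change of -0.16 and none at an unadjusted p below 0.05, and 7 of 9 had one against LPfl/+, with Vsig4 (log2 fold change -0.33) and Cd68 (-0.38) lower at an unadjusted p below 0.05, against 4.44% of all genes. The macrophage marker estimates were thus mostly on the same side as those of Saa3 and Il1b in LP245/+, while 5 of 9 were higher in LPfl/+ against LP+/+ (median 0.11), and their part in these results was not tested. S100a9, the most abundant of the neutrophil markers, was at 0.993 to 1.22 CPM in LP+/+, 1.72 and 1.78 CPM in LPfl/+ and 0.862 to 1.25 CPM in LP245/+, higher in LPfl/+ than in LP+/+ (log2 fold change 0.69, unadjusted p = 0.0240) and lower in LP245/+ than in LPfl/+ (log2 fold change -0.71, unadjusted p = 0.0219), against 4.22% and 4.44% of all genes. Sums of 5 cholangiocyte markers (29.6 to 35.3, 27.2 to 40.2 and 23.3 to 34.3 CPM) and 5 adipocyte markers (2.75 to 6.84, 3.90 to 5.43 and 3.79 to 4.92 CPM) overlapped between LP+/+, LPfl/+ and LP245/+. The adipocyte sum was almost entirely Cidec, at 2.72 to 6.80 CPM. Lep had no count in any liver, Adipoq and Plin1 had at most 1 count and Retn at most 2, so the sum is in effect the level of Cidec.

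Genes whose pattern was most like that of the members were found by correlation over 8 livers with the mean of the 10 standardized log2 levels, among 11627 other genes with a mean of at least 50 counts. The highest were Fubp3 (Pearson r = 0.973), Ttc13 (0.969), Prim2 (0.956), Ltbr (0.946) and Med8 (0.932), followed by Abcf2, Ctnnbip1, Cd300ld, Hells and Pgpep1 (0.929 to 0.922). With Saa1 alone the highest were Cd300ld (r = 0.971), Trdmt1 (0.965), Hdac8 (0.946), Hmgb3 (0.944) and Sike1 (0.944). These are the top values of many correlations over 8 livers that share genotype and library series, and they are given as a description.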

How the data were processed

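Flash-frozen livers of 8 male mice were sequenced by the authors (stranded total RNA, 76-base paired reads). Per the labels and the study's methods, reads were aligned with STAR to GRCm38 and counted per gene on GENCODE; the GENCODE release, the STAR version and the strand setting were not given in the sources used here, so antisense reads could be included, although no member overlaps another annotated gene. The deposited values are raw read counts. Of 49585 identifiers, 49326 matched a GENCODE M21 symbol. Log2 fold changes, standard errors and p-values came from the edgeR 4.0.16 quasi-likelihood test in R 4.3.3 on all 8 livers (TMM, filterByExpr, genotype as the one factor), with Benjamini-Hochberg adjustment over 16496 genes. DESeq2, the software used by the study, was run in version 1.42.0 as an alternative. An unadjusted p below 0.05, and ranges that do not overlap, were each read against the share of all genes tested. Levels per kb used the principal transcript. The fit was tested on simulated counts.

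The members, gene lists and motifs were chosen with earlier results of these data known. Genes were named by rule: the 10 members, genes of the other lists with an unadjusted p below 0.05, the gene of each list with the highest mean CPM, and the genes most correlated with the members. Per liver, 3 counts correspond to 0.0993 to 0.11 CPM, and 28 pairs of livers each differed by more than sampling noise (lowest chi-square per gene 18.7). Replicates are separate mice by their labels. Figures were drawn with matplotlib 3.10.9.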

Additional observations from a re-analysis of the deposited data

How the results depend on the processing

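With 2 or 3 livers per genotype, genes of low counts such as Saa3 and Lcn2 limit what can be seen, and no member passed the cutoff in the edgeR fit of 8 livers. All 10 members kept a lower estimate in LP245/+ under DESeq2, DESeq2 size factors, library totals, both filters, the fit of only the groups compared, the replicate block and the series covariate, and so did all but Hpx against LP+/+ and all but Hp and Hpx against LPfl/+ when livers were left out. The series covariate relies on LP+/+, with 1 liver in the second series, so it is a weak adjustment. Genes past the cutoff in LP245/+ against LP+/+ (1 in the fit reported) were 10 with DESeq2, 20 without a filter, 3 with library series as a covariate and 0 to 5 when a liver was left out. In LPfl/+ against LP+/+ (0 in the fit reported) they were 9, 14, 3 and 0 to 59, with 59 without LP+/+ replicate 1. In LP245/+ against LPfl/+ (0) they were 56, 122, 10 and 0 to 3, and 51 when only these groups were fitted. All genes with an unadjusted p below 0.05 were 978, 1137 and 1404 in the 3 comparisons, with 633 to 1269, 704 to 1903 and 1056 to 1769 when a liver was left out, and 870 for the last with the series covariate. Members with an unadjusted p below 0.05 were 2 to 6, 0 to 4 and 2 to 6 when a liver was left out, and 0 in LPfl/+ against LP+/+ when only these groups were fitted. The causes were not tested.

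Same-numbered replicates did not deviate together (correlations of -0.0822 to 0.0339), so the numbers do not pair the livers; a replicate block gave 0 genes past the cutoff in LP245/+ against LP+/+ and 6, 1 and 4 members with an unadjusted p below 0.05. Some estimates changed sign, among them Saa2 and Orm2 in LPfl/+ against LP+/+, which were at 0.42 and -0.47 in the fit reported. In LPfl/+ against LP+/+, Orm1 was at 0.044 with library totals, and Orm2 was at 0.12 and Apcs at -0.056 with the series covariate. Leaving out a liver there gave -0.019 to 0.85 for Saa2, -0.11 to 0.15 for Saa4, -0.14 to 0.093 for Orm1, -0.69 to 0.022 for Orm2, -0.017 to 0.26 for Hpx and -0.036 to 0.058 for Apcs. It gave -0.19 to 0.14 for Hpx in LP245/+ against LP+/+, and -0.26 to 0.010 for Hpx and -0.17 to 0.18 for Hp in LP245/+ against LPfl/+. Over the union of all exons, an alternative added after seeing the data, the levels per kb were 9.89 for Saa1, 4.61 for Saa2, 1.21 for Saa3 and 1.95 for Lcn2, which places Orm2 (14.2) above Saa1 and Saa2 and Lcn2 above Saa3, with the other members within the spread between livers.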
